A study of Mus musculus with 6 samples.

Results

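The genes described here are 9 complement regulators and innate recognition genes in retinal progenitor cells (RPCs) of the mouse. They are Cd59a, Cd59b, Cd55, Cd46, Serping1, Clu, Lbp, Colec12 and Cd14. Their probe sets were taken from the platform annotation by gene symbol, which gave 16 of 45037 probe sets on the array, 15 of them assigned to a single gene and 1 shared by Cd55 and Cd55b. Of the 9 genes, 8 had a probe set of their own. Cd59b had none in the annotation used here and was not analysed here. The genes were chosen by the measured difference between Pax6-deficient and control RPCs on these same arrays. Their differences in that contrast are therefore given as a description, with standard errors and without a test of their own, and the wording "called" states only that the thresholds were met.

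Complement is a cascade of plasma proteins that is set off by antibodies, by sugars on microbes or by slow spontaneous activation, and that ends in a pore in the target membrane. Host cells carry inhibitors that act at separate steps: C1 inhibitor at the start, CD55 and CD46 at the convertases, and CD59 and clusterin at the pore. Innate recognition of bacterial lipopolysaccharide (LPS) runs through a relay, in which LPS-binding protein passes LPS to CD14 and CD14 passes it to the receptor formed by TLR4 and MD-2. Several of these genes are also expressed in tissues without infection, and clusterin is abundant in many epithelia and in the eye.

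GFP-positive cells were sorted by FACS from dissociated E12 eyes of ICR mice, at about 1800000 cells per pool, and each pool was hybridised to 1 Affymetrix array. The control pools, 3 in number, carried the alpha-Cre transgene on a wildtype Pax6 background. The mutant pools, also 3, carried alpha-Cre together with floxed Pax6 alleles (Pax6loxP/loxP;α-Cre). Both groups thus carried the transgene, which places Cre and GFP under Pax6 regulatory sequences of the peripheral retina. The sort was thereby aimed at distal RPCs, and each sample was a pool of embryos. The terms control RPCs and mutant RPCs name these sorted pools, which also gave signal for markers of other cell types. The study treats the pools as biological replicates. The labels give the stage as E12 throughout, and the floxed segment of Pax6 holds the start codon and the exons of the paired domain.

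The 6 arrays were alike in scale, with median intensities between 12.9 and 13.1 and correlations of log2 values between arrays from 0.991 to 0.997. For Pax6, 1 of 5 probe sets was called lower in mutant RPCs, with a log2 difference of -1.60, and the brightest had one of -0.11. Which of them lie in the floxed segment was not determined here. All 13 measured progenitor markers lay above the array median on all arrays. Their summed intensity was 9593 to 10112 on control arrays and 6833 to 7003 on mutant arrays. Of the 13 markers 3 were called lower, Fgf15, Sfrp2 and Nr2e1, and these include the bright Sfrp2 (log2 11.66 in control and 10.68 in mutant RPCs), which weighs heavily in the sum. The other 10 were not called. Of all 13 markers, 11 had negative log2 differences, and 7 had an unadjusted p under 0.05 from limma, all of them lower. The share of all genes under that p was not counted. Six3 (-0.40) and Rax (-0.38) were lower without a call, and Hes1 (0.06) and Otx2 (0.10) had positive log2 differences. Fewer cells of a type and less RNA per cell cannot be told apart in such pools.

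Of the 15 single-gene probe sets, 3 were called higher and 2 were called lower in mutant RPCs, where a call needed a 1.5-fold difference, an unadjusted p below 0.05 and, after Benjamini-Hochberg adjustment, a limma p below 0.10. Among all probe sets 1.67% were called higher and 0.984% lower, 2.65% in all. The called probe sets belonged to 3 genes: Cd59a was lower, and Lbp and Colec12 were higher. The mutant and control arrays did not overlap for 10 of the 15 probe sets, a pattern found for 28.2% of all probe sets. Since the genes were chosen on this contrast, nothing is read from these shares.

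**Figure D1:**
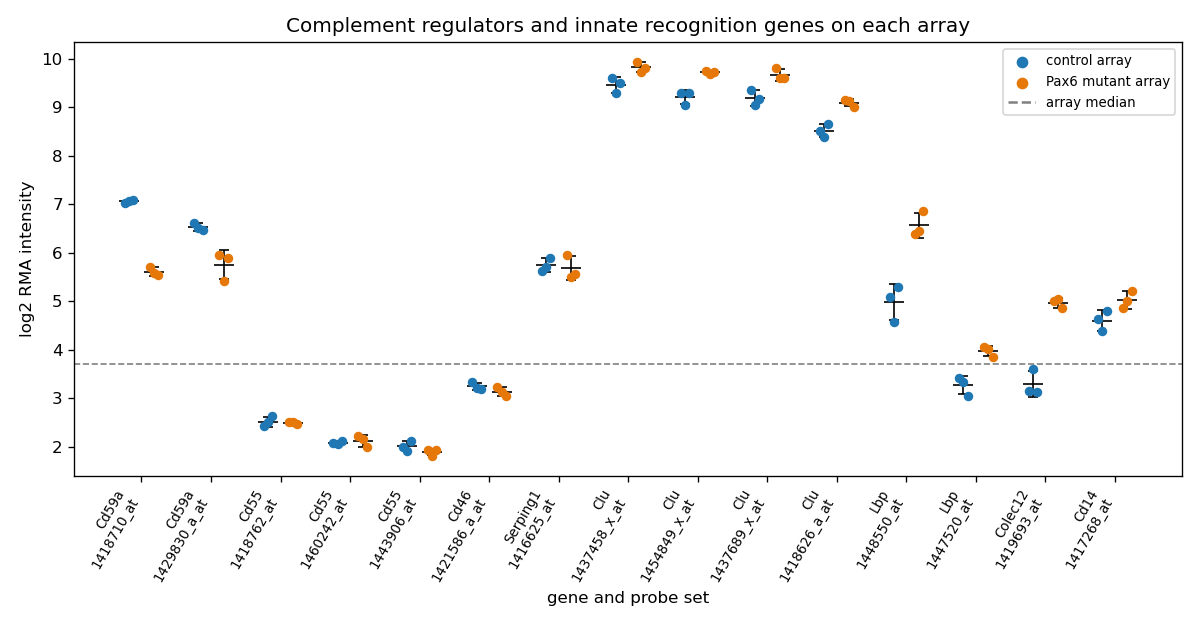
Log2 RMA intensity (y axis) of each single-gene probe set (x axis) on each array, blue for control and orange for mutant arrays; black bars show mean and SD (n = 3), and the dashed line is the array median. The mutant arrays lie below the control arrays for both Cd59a probe sets and above them for Lbp, Colec12, Clu and Cd14, while the Cd55 and Cd46 probe sets stay below the array median.

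CD59 blocks the last step of complement, the insertion of C9 into the membrane pore. Mice have 2 genes for it. In the RefSeq order of genes on chromosome 2 (GRCm38.p6), Cd59b and Cd59a are neighbours with 0 genes between them, and their annotated start sites on the plus strand lie 24735 bases apart. The 250 bases before each start site are shown because only Cd59a could be followed on the arrays, and capitals mark CpG dinucleotides. The Cd59a stretch is chr2:104095551-104095800 and the Cd59b stretch chr2:104070816-104071065, both from RefSeq on GRCm38.p6.
Cd59a: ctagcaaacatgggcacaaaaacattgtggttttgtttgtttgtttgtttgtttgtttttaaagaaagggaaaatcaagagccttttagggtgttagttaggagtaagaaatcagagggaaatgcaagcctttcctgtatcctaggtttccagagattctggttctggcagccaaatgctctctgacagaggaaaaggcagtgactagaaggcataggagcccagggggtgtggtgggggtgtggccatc
Cd59b: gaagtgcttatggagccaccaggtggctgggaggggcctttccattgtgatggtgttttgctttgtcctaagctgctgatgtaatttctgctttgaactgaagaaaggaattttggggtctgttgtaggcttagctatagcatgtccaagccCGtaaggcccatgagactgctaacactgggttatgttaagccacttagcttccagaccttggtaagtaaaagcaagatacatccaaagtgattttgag
The Cd59a stretch holds 0 CpG dinucleotides and the Cd59b stretch 1. In windows that also took in the first 50 transcribed bases, both genes had 1, against a median of 7 over 32851 promoters, and their GC content was 45.7% and 47%, against a median of 52.7%. By comparison, the windows of Cd55 and Cd46 held 12 and 13. Of 4 short motifs searched on both strands in the Cd59a window, the TATA box (TATAAA), the CCAAT box (CCAAT), the GC box (GGGCGG) and a homeodomain core (TAATTA), none matched. These letters occur in 13.6%, 37.4%, 35.7% and 5.29% of all promoters, respectively. The Cd59b window held 1 match to the CCAAT letters, on the minus strand at bases 287 to 291. It thus lay within the first 50 transcribed bases and outside the stretch shown. The table used here had windows for 4 of the 9 genes.

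Among the 8 measured genes, Cd59a had the most negative difference. Its brighter probe set (1418710_at) had log2 intensities of 7.02, 7.07 and 7.09 in control pools against 5.71, 5.58 and 5.54 in mutant pools. The control arrays lay within 0.07 of each other, and the lowest of them stood 1.31 above the highest mutant array. The level in mutant RPCs was 2.73-fold lower (log2 difference -1.45, standard error 0.07). The other probe set (1429830_a_at) had log2 intensities of 6.62, 6.51 and 6.47 in control pools against 5.96, 5.41 and 5.89 in mutant pools, again without overlap. Its log2 difference was -0.78 (standard error 0.14), so that the size of the difference was not the same for both probe sets. Both were called lower. The brighter one was called under all 14 alternatives, and the other lost its call when variances were not moderated across probe sets.

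CD55 and CD46 act earlier, at the C3 and C5 convertases: CD55 speeds their decay, and CD46 is a cofactor for the cleavage of C3b and C4b. In mice CD46 is largely restricted to the testis, and its place on most cells is taken by the related regulator Crry, the product of Cr1l. Cd46 and Cr1l are neighbours on chromosome 1. The single Cd46 probe set (1421586_a_at) had log2 intensities of 3.33, 3.21 and 3.18 in control pools against 3.23, 3.13 and 3.04 in mutant pools, and the groups overlapped. The 3 Cd55 probe sets lay at control means of 2.52, 2.08 and 2.00, and had log2 differences of -0.03, 0.04 and -0.12. The probe set shared with Cd55b had mean log2 intensities of 1.76 in control RPCs (SD 0.06, n = 3) and 1.70 in mutant RPCs (SD 0.10, n = 3). All of these lay below the array median on every array, and the mutant and control arrays overlapped for each. At such intensities a difference could not be detected reliably on these arrays, and the number of arrays limits the precision. Cr1l, by contrast, was above the array median on all arrays. It had log2 intensities of 7.29, 7.14 and 7.02 in control pools against 7.20, 7.21 and 7.09 in mutant pools. The groups overlapped, and the log2 fold change was 0.02 (95% interval from -0.18 to 0.22, limma adjusted p = 0.935).

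Serping1 encodes the C1 inhibitor, a serpin that inactivates the C1r and C1s proteases of the classical pathway. Its log2 intensities were 5.63, 5.70 and 5.90 in control pools against 5.96, 5.51 and 5.56 in mutant pools. Mutant replicate 1 was the highest of the 6 arrays and the other mutant arrays were the lowest, so that the groups overlapped. The log2 difference was -0.07 (standard error 0.13).

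Clu encodes clusterin, a secreted chaperone that also binds the assembling complement pore in fluid. It was the member with the most probe sets, and for all 4 the lowest mutant array exceeded the highest control array. The probe set with the largest difference (1418626_a_at) had log2 intensities of 8.52, 8.39 and 8.65 in control pools against 9.15, 9.13 and 9.02 in mutant pools. Its log2 difference was 0.58 (standard error 0.08), a 1.49-fold difference that fell just short of the 1.5-fold threshold. The brightest probe set (1437458_x_at) had log2 intensities of 9.60, 9.29 and 9.50 in control pools against 9.94, 9.73 and 9.82 in mutant pools. The gap between its groups was 0.13, and the log2 difference was 0.36 (standard error 0.10). The others had log2 differences of 0.50 and 0.48. None of the Clu probe sets was called. Probe set 1418626_a_at was called without control replicate 3 or mutant replicate 3, with log2 differences up to 0.64, and with array medians subtracted. The 3 brighter probe sets are of the x type, which can also bind other transcripts.

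**Figure D2:**
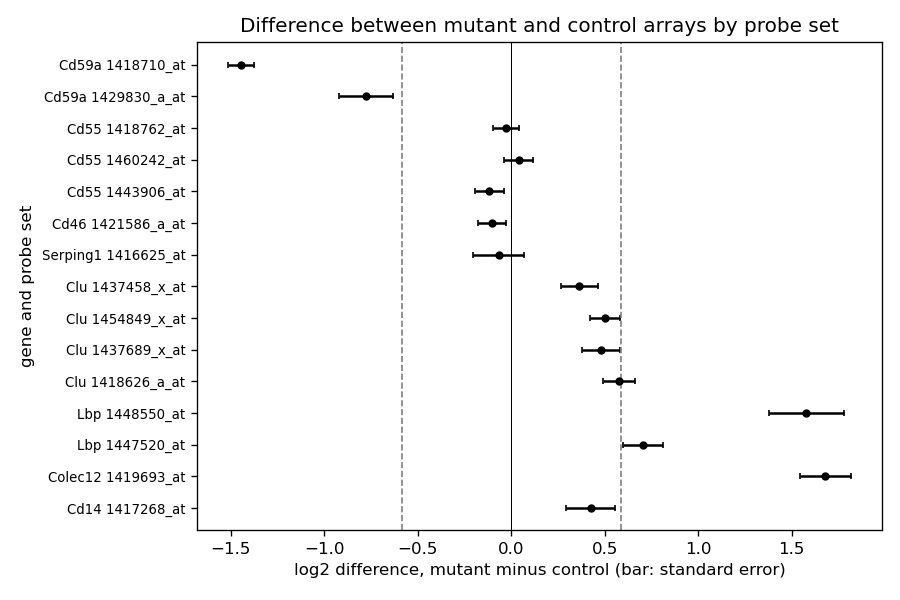
Log2 difference between mutant and control arrays (x axis) for each single-gene probe set (y axis), with points at the estimate and bars of 1 standard error; dashed lines mark a fold change of 1.5 in either direction. The Cd59a probe sets lie to the left at -1.45 and -0.78, those of Lbp and Colec12 to the right, and the Clu probe sets between 0.36 and 0.58.

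Lbp encodes LPS-binding protein, an acute phase protein made mainly by the liver that takes LPS out of bacterial membranes. It was higher in mutant RPCs by both of its probe sets. The brighter one (1448550_at) had log2 intensities of 5.08, 4.58 and 5.29 in control pools against 6.38, 6.45 and 6.86 in mutant pools. The lowest mutant array was 1.09 above the highest control array, and the control arrays spread over 0.71. The level was 2.99-fold higher in mutant RPCs, with a log2 difference of 1.58 (standard error 0.20). The dimmer one (1447520_at) lay below the array median on the control arrays and above it on the mutant arrays, with a log2 difference of 0.71 (standard error 0.11). Both were called higher, and neither kept its call with unmoderated variances.

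Cd14 encodes the receptor that takes LPS from LPS-binding protein, and it is best known from monocytes and macrophages. Its log2 intensities were 4.63, 4.38 and 4.79 in control pools against 4.85, 5.01 and 5.21 in mutant pools. The groups did not overlap, but the gap between them was 0.06, and the log2 difference of 0.43 (standard error 0.13) was not called. The next members of the relay were Tlr4, the signalling receptor, and Ly96, which encodes MD-2. Tlr4 had mean log2 intensities of 3.14 in control RPCs (SD 0.23, n = 3) and 3.14 in mutant RPCs (SD 0.16, n = 3). It lay below the array median on all arrays, with a log2 fold change of 0.00 (95% interval from -0.31 to 0.32). Ly96 was also below the array median on all arrays. It had log2 intensities of 3.18, 3.13 and 3.16 in control pools against 3.52, 3.40 and 3.49 in mutant pools, a log2 fold change of 0.31 (limma adjusted p = 0.0344), under the fold change threshold. Myd88, the adaptor below the receptor, differed by 0.39 on the log2 scale (limma adjusted p = 0.171).

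Colec12 encodes collectin-12, a scavenger receptor with a collagen stalk and a sugar-binding head, which is known from vascular endothelium. Among the 8 measured genes it had the largest difference on the plain log2 scale, a rank that was lost with a constant added to the intensities. Its single probe set had log2 intensities of 3.15, 3.61 and 3.12 in control pools against 5.01, 5.05 and 4.85 in mutant pools. All control arrays lay below the array median and all mutant arrays above it, with a gap of 1.25. The log2 difference was 1.68 (standard error 0.14), 3.21-fold, and because the control level lay below the array median the size of the difference is uncertain. With 16 added to each intensity before the log, it was 0.87, below the 1.21 of Lbp and, in size, the -1.20 of Cd59a.

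Control replicate 2 gave the lowest value of the 6 arrays for 6 of the 15 probe sets, namely all those of Clu, the brighter one of Lbp and that of Cd14. The summed intensities of the endothelial, pigment epithelium, erythroid and microglial marker lists were also lowest on this array. Without it the log2 difference of Lbp was 1.38 and that of Cd14 was 0.31, and the brighter Lbp probe set was still called. The part of these marker levels in the results was not tested.

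The genes whose profile over the 6 arrays was closest to that of each called gene were sought among 18192 others, by the Euclidean distance between log2 values less the control mean. With 6 arrays in 2 groups this distance mostly reflects the difference between the groups. For Cd59a they were Fgf15 (distance 0.15), a growth factor gene of early RPCs, Scg5 (0.30), a chaperone gene of secretory granules, and Efhd1 (0.35), a gene of a mitochondrial calcium-binding protein. Their log2 differences were -1.43, -1.60 and -1.26. For Lbp they were Sdc4 (0.47), Nrp2 (0.53) and Cpeb2 (0.61), with log2 differences of 1.51, 1.72 and 1.45. The probe sets of Sdc4 differed in sign, from -0.77 to 1.51. Those of Nrp2 ranged from 0.16 to 2.11 and those of Cpeb2 from 0.60 to 1.45. For Colec12 they were Nxph1 (0.39), Spint1 (0.45), the gene of an epithelial protease inhibitor, and Col14a1 (0.50), a fibril-associated collagen gene. Their log2 differences were 1.77, 1.48 and 1.49. The probe sets of Nxph1 ranged from 0.25 to 2.11 and those of Col14a1 from 0.10 to 1.49.

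The other genes of these pathways were examined in 11 lists, each gene by its brightest probe set. The lists were drawn up with earlier results of these arrays known, so their counts are a description and no independent evidence, and the adjusted p-values are those of the fit over all probe sets. Of 202 measured genes, 11 were called higher and none was called lower by limma, where 2.28% of all genes were called higher and 0.918% lower. At an unadjusted p under 0.05 from limma, 47 were higher and 11 lower, and with unmoderated variances 4 were called higher and 0 lower. Such a p is lenient: a serpin gene at a limma p of 0.051 had an adjusted p of 0.24. The share of all genes under an unadjusted p of 0.05 was not counted, so no excess is read from these counts, here or by list. The median log2 fold change over these genes was 0.04, against -0.01 over all genes measured. The array median was not reached on any array by 93 of the 202 genes.

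Of 19 genes that start complement or form its convertases, 2 were higher in mutant RPCs. Ptx3, the gene of a long pentraxin that binds C1q, had log2 intensities of 5.78, 5.67 and 5.82 in control pools against 6.63, 6.91 and 6.84 in mutant pools, without overlap. It rose by 1.04 on the log2 scale (standard error 0.09, limma adjusted p = 0.00361). It was called under all 14 alternatives fitted to single probe sets, but the median of its probe sets, at 0.44, was not called. C2, a protease of the classical convertase, rose by 0.60 (limma adjusted p = 0.00729), by a probe set of the x type. It was not called without control replicate 2 or mutant replicate 2, nor by the median of its probe sets. Its call was also lost with quantile normalisation and with 16 added to the intensities. C1qa, a subunit of the first component that is made by macrophages, differed by 0.22 on the log2 scale (limma adjusted p = 0.388). None of the 6 genes of the terminal pore was called by limma, 0 had an unadjusted p under 0.05, and 5 of them lay below the array median on all arrays.

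Among 20 other complement regulators, 1 was higher and none was lower. It was Fmod, the gene of a matrix proteoglycan that binds C1q, which differed by 0.76 on the log2 scale (limma adjusted p = 0.0802) and kept its call without 1 of the 6 arrays only, control and mutant arrays taken in turn. The probe set used for Fmod is of the x type, and the median of its probe sets, at 0.16, was not called. Of 8 complement receptor genes none was called, 2 had an unadjusted p under 0.05 from limma, and 0 were called with unmoderated variances. C3ar1, the receptor of the C3a peptide, had a log2 fold change of 0.25 (95% interval from -0.03 to 0.52), and C5ar1 one of -0.04 (95% interval from -0.21 to 0.13) at a level below the array median.

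**Figure D3:**
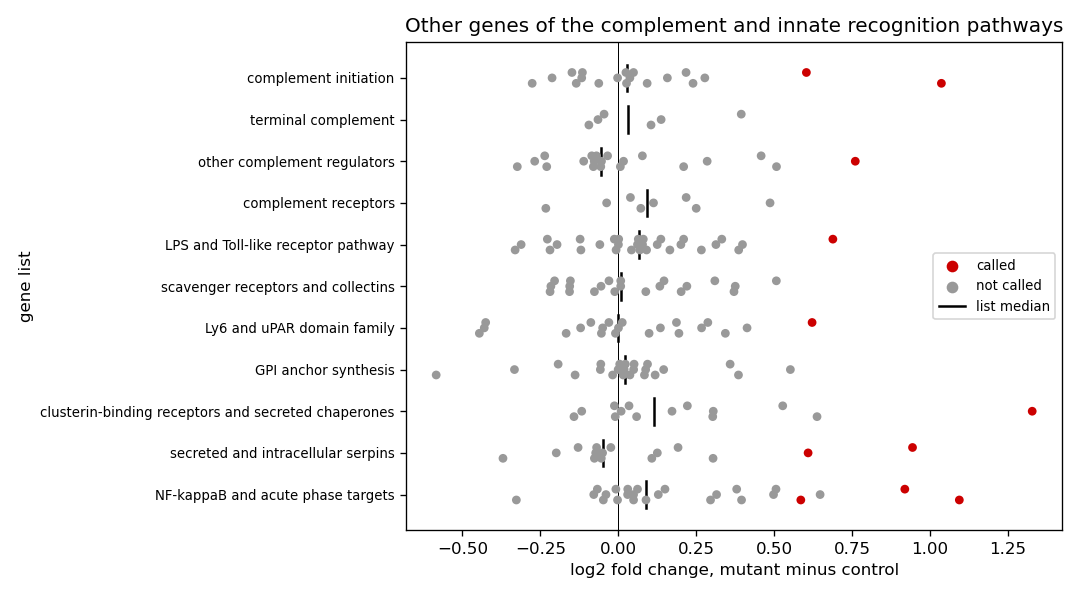
Log2 fold change, mutant minus control (x axis), of each measured gene of 11 lists (y axis), where each point is a gene at its brightest probe set and the vertical black mark is the median of its list. Called genes are drawn in red, all of them to the right of 0, and the A2m point at 1.33 lies farthest to the right.

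Of 30 genes of the LPS and Toll-like receptor pathway, 1 was higher. This was Pltp, which encodes a lipid transfer protein of the same family as LPS-binding protein. Its log2 intensities were 8.71, 8.37 and 8.81 in control pools against 9.28, 9.38 and 9.29 in mutant pools, and it rose by 0.69 (standard error 0.11, limma adjusted p = 0.0219). Pltp was not called without control replicate 2 (0.56). None of 21 scavenger receptors and collectins was called, with 6 at an unadjusted limma p under 0.05, and 0 were called with unmoderated variances. Msr1, the class A macrophage scavenger receptor, differed by -0.16 on the log2 scale (limma adjusted p = 0.572) below the array median, and Scara3, a related gene, one of -0.03 (95% interval from -0.22 to 0.16).

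Among targets of NF-kappaB and of the acute phase response, 3 of 25 were called higher, Icam1, Vcam1 and Tnfaip3. At an unadjusted p under 0.05 from limma, 10 of the 25 were higher and 1 was lower. Nfkbia (0.51, limma adjusted p = 0.0216) was among the higher genes that lay under the fold change threshold. The adhesion molecule genes Icam1 and Vcam1 had log2 fold changes of 0.92 (limma adjusted p = 0.0501) and 1.09 (limma adjusted p = 0.0675), and Tnfaip3, a feedback inhibitor of NF-kappaB, had one of 0.59 (limma adjusted p = 0.0575). The Vcam1 probe set lay below the array median on 4 of the 6 arrays, and the medians over the probe sets of Vcam1 (0.31) and Tnfaip3 (0.48) were not called. These calls were weak: Icam1 was called without 3 of the 6 arrays in turn, Vcam1 without 1 and Tnfaip3 without 1, and none of the 3 kept its call with unmoderated variances. Of 15 serpin genes other than Serping1, 2 were higher, Serpinb9 (0.94) and Serpinf1 (0.61). Serpinb9 lay below the array median on the control arrays, and lost its call with unmoderated variances and with 16 added to the intensities. Serpinf1, which encodes pigment epithelium-derived factor, was not called without control replicate 3 or mutant replicate 1, nor by the median of its probe sets (0.43).

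The list of clusterin receptors and secreted chaperones, which also took in apolipoproteins and intracellular chaperones, held 1 called gene of 14. A2m, the gene of the protease trap alpha-2-macroglobulin, had log2 intensities of 4.79, 4.37 and 5.04 in control pools against 6.07, 6.12 and 5.99 in mutant pools. It rose by 1.33 (standard error 0.16, limma adjusted p = 0.00911) and was called under all 14 alternatives. CD59, CD55 and CD14 are held in the membrane by a glycosylphosphatidylinositol (GPI) anchor. None of 23 GPI anchor synthesis genes was called, 5 had an unadjusted p under 0.05 from limma, and 0 were called with unmoderated variances. Pigt (-0.58, limma adjusted p = 0.00935) and Pigo (0.55, limma adjusted p = 0.0094) fell short of the fold change threshold only. In the Ly6 and uPAR domain family, to which CD59 belongs, 1 of 21 genes was higher, Lypd6b (0.62, limma adjusted p = 0.0503), which kept this call without 2 of the 6 arrays in turn.

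Markers of other cell types moved in the same arrays. Of 17 microglia and macrophage markers none was called by limma, 1 had an unadjusted p under 0.05, and none was called with unmoderated variances. Their summed intensity was 956 to 1198 on control arrays and 1104 to 1295 on mutant arrays, which overlap. Of these markers 13 had positive log2 differences and 4 negative ones, with a list median of 0.16 against -0.01 over all genes. Csf1r and Aif1, which define these cells, had log2 fold changes of 0.16 (95% interval from -0.08 to 0.40) and 0.17 (95% interval from -0.05 to 0.38), and Ptprc, the common leukocyte antigen gene, one of 0.05. Csf1r lay above the array median on all arrays, at 8.46 ± 0.16 (SD, n = 3) in the control pools. Of the 17 markers, 14 lay above the array median on all arrays and 2 lay below it on all arrays.

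Endothelial markers were higher, 6 of 13 called and none lower, with summed intensities of 881 to 1127 on control arrays and 1460 to 1565 on mutant arrays. Cdh5 had a log2 fold change of 1.23 and Ramp2 one of 0.74, and Cdh5 was called without 2 of the 6 arrays in turn. Of 17 pigment epithelium markers 9 were higher, with sums of 6778 to 8274 and 11079 to 11154, and of 18 lens and surface ectoderm markers 6 were higher, with sums of 3058 to 4376 and 5577 to 5960. Of 16 mesenchymal markers 7 were higher, with sums of 3746 to 3854 and 4126 to 4581. The bright Vim (log2 11.48 in control and 11.48 in mutant RPCs) weighs heavily in this sum, and the list median was 0.60. Among 9 erythroid markers 1 was higher, with sums of 8252 to 11187 and 11527 to 12464. The called erythroid gene, Hbb-bh1, kept its call without 1 of the 6 arrays only. In the other direction, 6 of 12 genes of newborn neurons were lower, with sums of 2088 to 2756 and 1074 to 1175. With unmoderated variances, 1 endothelial, 2 pigment epithelium, 2 lens, 2 mesenchymal and 0 erythroid markers were called higher, and 2 genes of newborn neurons were called lower. Cd59a was called lower on the same arrays as these neuronal genes and 3 of the 13 progenitor markers, while Lbp and Colec12 were called higher on the same arrays as members of the endothelial, pigment epithelium, lens, mesenchymal and erythroid lists. The Clu and Cd14 probe sets had positive differences there but were not called. The part of these cell types in the levels of the 9 genes was not tested.

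**Figure D4:**
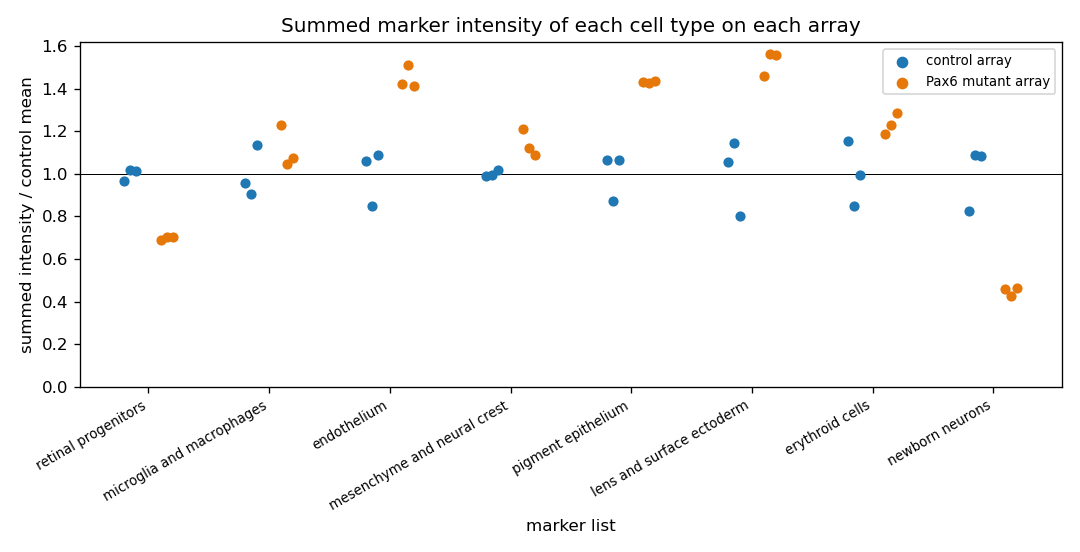
Summed linear intensity of the measured markers of each cell type on each array, divided by the mean of the control arrays (y axis), by marker list (x axis), blue for control and orange for mutant arrays. The microglia and macrophage sums of the groups overlap, those of endothelium, pigment epithelium, lens, mesenchyme and erythroid cells are higher on every mutant array, and those of progenitors and newborn neurons are lower on every mutant array.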

How the data were processed

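RNA of 3 control and 3 Pax6 mutant pools of sorted RPCs was hybridised to Affymetrix mouse arrays. The authors corrected and normalised the signals by RMA (through RACE and Bioconductor in the methods, Affymetrix Expression Console in the submitters' processing notes, with no versions stated), and the deposited values are intensities per probe set on a linear scale. RMA shrinks differences of dim probe sets. Log2 was taken, 64 control probe sets were left out, and 45037 probe sets were compared with limma 3.58.1 in R 4.3.3, which was tested on simulated data. Calls used the thresholds of the methods (fold change 1.5, p 0.05, adjusted p 0.10). The check with SAM that the methods name was not run. Samples were grouped by their titles. P-values measure the spread between these pools.

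Of the probe sets, 34945 were annotated with 1 gene, 932 with several and 9160 with none, and 26 of 228 listed pathway genes were not analysed here. The genes named by rule were all members, up to 4 called genes in each direction per list, and genes fixed beforehand by role. The 3 genes closest in profile to Cd59a, Lbp and Colec12 were also named by rule. Besides these, Six3, Rax, Hes1, Otx2, Nfkbia, Pigt, Pigo and Vim were named with their values known. The members and lists were chosen with earlier results of these data known. Arrays have no sequencing depth, and the precision is limited by how many there are. The replicate numbers of the labels were shared by both groups but did not pair the samples: deviations of arrays with the same number correlated between -0.01 and -0.00064.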

Additional observations from a re-analysis of the deposited data

How the results depend on the processing

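Cd59a, Lbp and Colec12 kept their direction under every alternative run, as did the Clu and Cd14 probe sets, while Serping1 and the 2 brighter Cd55 probe sets, all near 0, changed sign under some. Their brightest probe sets had log2 differences of -1.20, 1.21 and 0.87 with 16 added to the intensities, and the medians of the probe sets were -1.11 for Cd59a and 1.14 for Lbp. Unmoderated variances gave 282 probe sets higher and 178 lower, among them 1 member probe set higher and 1 lower, 1 member gene higher by its brightest probe set, 4 pathway genes higher, and 7 marker genes higher and 5 lower. With 16 added, 343 and 174 probe sets and 4 pathway genes were called. Without 1 array at a time, 544 to 787 probe sets were higher and 342 to 504 lower, 5 to 10 pathway genes were higher, fewest without mutant replicate 1 or mutant replicate 2, and 17 to 29 marker genes were higher and 6 to 12 lower. Without control replicate 1 or control replicate 2, 7 pathway genes were higher. With single arrays left out, 0 to 1 pathway genes were lower, as was 1 with quantile normalisation and with array weights. With quantile normalisation and array weights this was Pigt (picked with its value known), with a log2 fold change of -0.58 that is just short of the threshold. The replicate number as a block gave 709 probe sets higher and 427 lower, with 3 member probe sets higher and 2 lower and 10 pathway genes higher. The samples share only a number, so this is no paired result, and of the genes named by the rule Tnfaip3 and the endothelial gene Tek were not called with it. The cause of these changes was not tested. Probe sets below the array median, such as those of Cd55 and Cd46, limit what can be detected.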
